A study of Mus musculus with 30 samples.

Results

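Non-ribosomal TOP mRNAs are transcripts outside the ribosomal protein family that begin with a 5' terminal oligopyrimidine (TOP) tract. A list of 10 such genes was followed here, with each gene read from the array probe sets whose annotation names it and no other gene. The translation elongation factor genes Eef1a1, Eef1b2, Eef1d and Eef2, the poly(A)-binding protein gene Pabpc1, the nucleolar chaperone gene Npm1, Tpt1, the histone chaperone gene Nap1l1 and the import receptor gene Ipo7 had 24 such probe sets among 45101 on the array. Both probe sets of the tenth gene, Eef1g, also name a predicted gene, so Eef1g has no value here. Of the 24 probe sets 21 passed a filter on low values, among 27022 that did, and they cover 9 genes of 13250 with a tested probe set of their own. The 3 that failed were the Eef1d probe set 1459754_x_at, the Eef2 probe set 1440784_at and the Tpt1 probe set 1416643_at, which lay at the lowest recorded value on 15, 20 and 23 of the 24 pool arrays.

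Day-5 embryoid bodies (EB), the differentiating aggregates that mouse embryonic stem cells form once leukaemia inhibitory factor (LIF) is withdrawn, were compared with R1 mouse embryonic stem cells (ESC) held undifferentiated by LIF. All cultures of both states were given cycloheximide at 150 ug/ml for 15 min, which holds ribosomes on their mRNAs. Cytoplasmic lysate was spread over a sucrose gradient in 12 fractions that were joined into 4 pools, and the lysate also gave unfractionated (total) RNA. Each state had 3 cultures, called biological replicates in the labels, which with 5 RNA preparations per culture gives 30 arrays in 10 groups of 3. Which end of the gradient pool 1 came from is not stated, and the pools keep their numbers here. Each array was labelled from 2.5 ug of RNA and the yields of the pools were not used, so a ratio or share over pools compares array signals and not amounts of mRNA in the gradient. ESC is a single cell line, R1, and EB are mixtures of cell types. In such bulk RNA, fewer cells of a type and less RNA per cell cannot be told apart.

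In a TOP mRNA the capped first base is a cytidine, followed by an unbroken run of pyrimidines. The tract lets the cell switch the translation of these mRNAs as a group: the kinase complex mTORC1 promotes it, and the RNA-binding protein LARP1 binds the cap and the tract and holds the mRNAs back when mTORC1 is inactive. The group consists mainly of ribosomal protein mRNAs, together with mRNAs for elongation factors and a few other abundant proteins such as those followed here. On a sucrose gradient an mRNA carrying more ribosomes sediments further.

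The RefSeq promoter table (build GRCm38.p6, 250 bases before to 50 bases after an annotated start) holds 6 of the genes, Eef1a1, Eef1b2, Eef2, Tpt1, Nap1l1 and Ipo7. The transcript strand was searched for the feature that defines the group, a C followed by at least 4 bases that are all C or T, and the run nearest to the annotated start is shown in capitals in 30 bases of sequence for 4 genes. In Nap1l1 the run starts at the annotated first base, in Eef1a1 it starts 5 bases before it, in Ipo7 9 bases before it and in Eef2 15 bases after it. In the order printed, the windows lie at chr10:111473215-111473244 (plus strand), chr9:78481710-78481739 (minus strand), chr7:110018298-110018327 (plus strand) and chr10:81176634-81176663 (plus strand).
Nap1l1: gggctctcgggtCTTTTTTagcgccatctg
Eef1a1: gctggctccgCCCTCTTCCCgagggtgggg
Ipo7: ccttggcgCTTCTCTTTCCTTTCgcgccgg
Eef2: gacgtcagcggtCTCTTCCgccgcagccgc
The nearest runs of Eef1b2 and Tpt1 lay 32 bases after and 38 bases before the annotated start. A run starting within 10 bases of the annotated start was found in 3 of these 6 promoters, in 35 of 70 promoters of cytosolic ribosomal protein genes and in 9513 of all 32851 promoters (29.0%). A match describes the letters near an annotated start, and the start used by these cells was not measured.

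Signals were deposited on the log2 scale with a scaling that is not described. Spike-in RNAs averaged 8.67 to 9.13 on all arrays, while the whole distribution of an array shifts between groups. Mean linear signal was 345 ± 38.5 in EB total RNA and 154 ± 2.86 in ESC total RNA (SD, n = 3 each), and ranged from 96.1 to 578 over EB pool arrays and from 72.4 to 323 over ESC pool arrays. Changes are therefore given on 3 scales: as deposited, after quantile normalization, and after each array was centred on the median of the brightest 10% of tested probe sets (2703). The third was added after the data were seen, because quantile normalization leaves the brightest probe sets almost no room. Over the 24 pool arrays the Eef1a1 probe set spanned 3.72 log2 units as deposited and 0.54 after quantile normalization, and that of Tpt1 3.57 and 0.45. EB pool 2 replicate 3 stood apart, with hybridisation controls at 13.92, and results that rest on it are also given without EB replicate 3. The 3' minus 5' log2 signal of Actb, a measure of RNA integrity, was 2.26 ± 0.22 in EB and 3.10 ± 0.29 in ESC total RNA (SD, n = 3 each), and its pool means ranged from 0.74 to 2.55 in EB and from 2.30 to 4.10 in ESC. The highest Actb value of any array, 5.31, was that of ESC pool 2 replicate 3. The part of this measure in the results was not tested. Mean linear signal in ESC pool 1 was 226 in replicate 1, against 72.4 and 81.3 in replicates 2 and 3. On the deposited scale 7 of 8 tested embryonic stem cell markers were higher and 1 was lower in EB total RNA than in ESC total RNA. Of 9 tested differentiation markers 5 were higher, and by the same test 73.3% of all probe sets were higher. After quantile normalization 1 stem cell marker was higher and 1 lower, and 4 differentiation markers were higher and 1 lower. The shares of all probe sets were then 4.03% higher and 3.61% lower. Centred on the brightest 10%, 2 stem cell markers were higher and 2 lower, and 3 differentiation markers were higher and 2 lower. The shares of all probe sets were 6.5% higher and 29.6% lower on that scale.

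In total RNA all 9 genes had a higher deposited signal in EB than in ESC, by 0.87 to 1.58 log2 units. Ipo7, which encodes an importin that carries ribosomal proteins and other cargo into the nucleus, measured 11.55, 11.42 and 11.71 in the EB cultures and 9.96, 9.94 and 9.96 in the ESC cultures (deposited log2 signal). The groups lay far apart and the difference was 1.58 ± 0.16 (log2, SE, n = 3 per state; limma adjusted p = 3.64e-05). Eef2, which encodes the factor that moves the ribosome along the mRNA, measured 13.55, 13.16 and 13.57 in EB and 12.06, 12.01 and 12.11 in ESC, a difference of 1.36 ± 0.17 (limma adjusted p = 8.36e-05). The other 7 genes differed by 0.87 (Eef1d) to 1.14 (Nap1l1), and in each of the 9 genes every EB culture lay above every ESC culture. The median difference over the 9 genes was 1.04, against 0.86 over all tested probe sets, of which 73.3% were called higher and 72.6% had every EB culture above every ESC culture. Here and below, called means a limma p, adjusted by the Benjamini-Hochberg method over 27022 probe sets, below 0.05.

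Relative to the rest of the array these differences shrank to near 0. After quantile normalization none of the 9 genes was called by limma (background 4.03% higher and 3.61% lower), and the differences ran from -0.22 in Eef1d to 0.42 in Ipo7 and 0.37 in Eef2. Before adjustment 2 genes had a limma p below 0.05, and the share of all probe sets at that threshold is not given. Centred on the brightest 10%, Ipo7 was higher by 0.41 ± 0.13 (limma adjusted p = 0.0421). By their brightest probe sets the other 8 genes were not called and 7 of them had negative differences. Of all probe sets 6.5% were called higher and 29.6% lower. Among the further probe sets of the genes, 2 of 3 tested for Eef1d were called lower and 1 of 7 for Nap1l1 higher. By the brightest probe set of each gene, Ipo7 differed most in total RNA on each of the 3 scales. Over all tested probe sets it did not, since the highest Nap1l1 difference was 1.63 on the deposited scale. The highest Nap1l1 difference was 0.45 after quantile normalization and 0.46 centred on the brightest 10%. The lowest Eef1d difference was -0.78 and -1.085 on these scales.

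**Figure D1:**
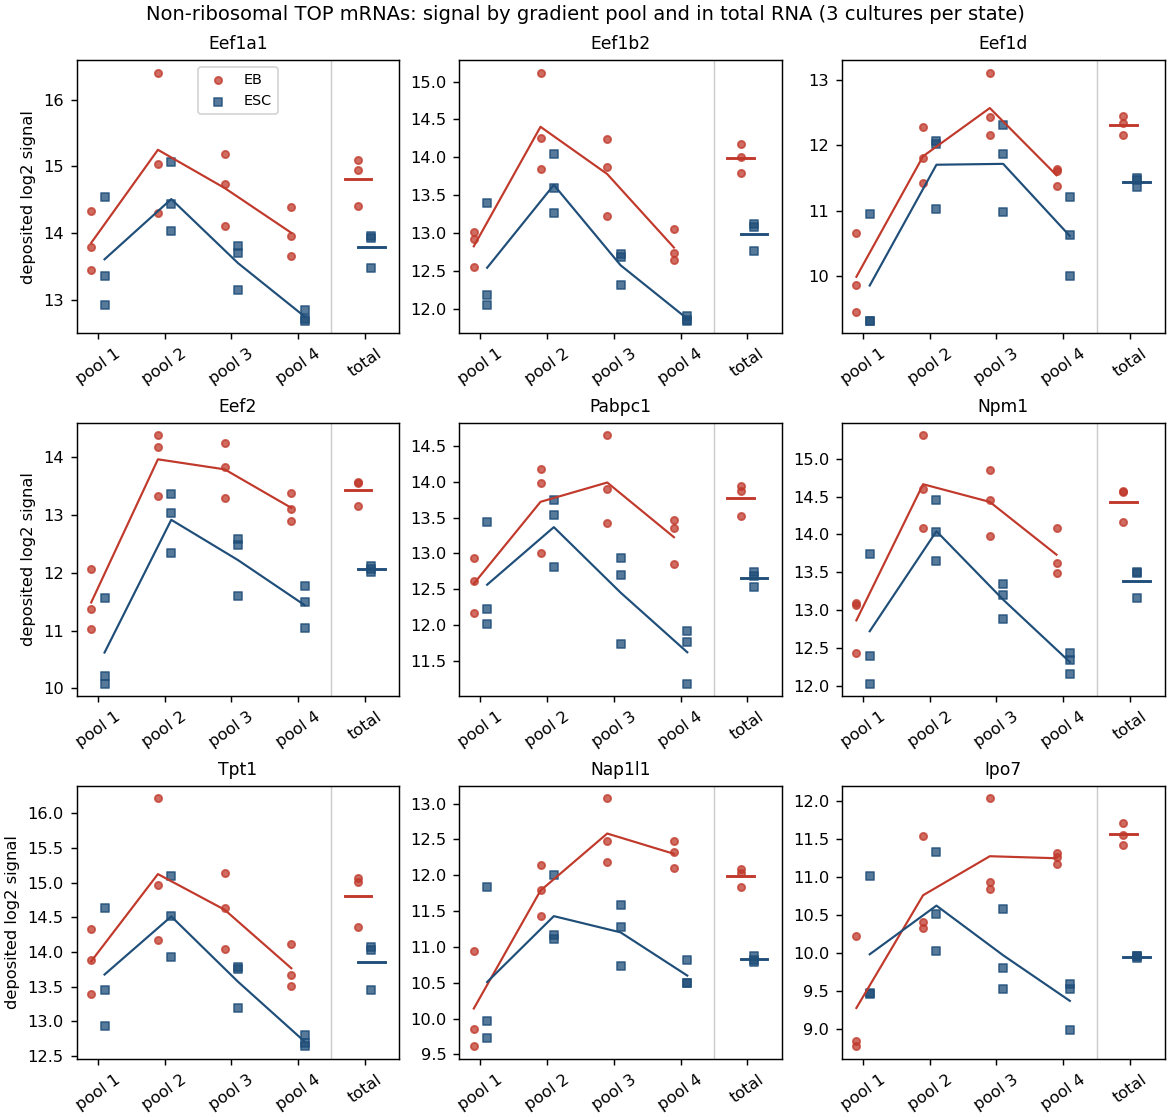
Deposited log2 signal (vertical axis) of the 9 genes in pools 1 to 4 and in total RNA, with EB as circles and ESC as squares, 1 point per culture and lines through the means of 3 cultures. Eef1a1, Eef1b2, Npm1 and Tpt1 have their highest mean in pool 2 in both states, while Nap1l1 and Ipo7 stay high through pools 3 and 4 in EB and decline after pool 2 in ESC.

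Over the gradient the 9 mRNAs had different profiles, most visibly in EB. Eef1a1, which delivers aminoacyl-tRNA to the ribosome and recovers after each cycle with the help of the exchange factor subunits encoded by Eef1b2 and Eef1d, had EB means of 13.85 ± 0.45, 15.25 ± 1.07, 14.68 ± 0.54 and 14.00 ± 0.37 in pools 1 to 4 and ESC means of 13.61 ± 0.84, 14.51 ± 0.52, 13.55 ± 0.36 and 12.75 ± 0.09 (deposited log2 signal, SD, n = 3). Pool 2 was its highest pool in 2 of 3 EB cultures and 2 of 3 ESC cultures. The neighbouring pools overlapped in EB, where pool 2 ran up to 16.41 in replicate 3. Eef1b2 and Tpt1, whose product is an abundant growth-related protein, had the same shape, and for Eef1b2 pool 2 was the highest in all 3 cultures of each state, with 43.1% ± 8.63 of the summed pool signal in EB and 44.2% ± 7.91 in ESC.

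Ipo7 and Nap1l1 had another shape in EB. Ipo7 measured 10.22, 8.77 and 8.84 in EB pool 1, 11.54, 10.33 and 10.41 in pool 2, 12.04, 10.84 and 10.94 in pool 3, and 11.31, 11.17 and 11.26 in pool 4. In ESC it measured 11.01, 9.46 and 9.48 in pool 1, 11.33, 10.51 and 10.03 in pool 2, 10.58, 9.53 and 9.80 in pool 3, and 9.59, 9.53 and 8.99 in pool 4. Pool 4 or pool 3 was the highest in every EB culture and pool 2 in every ESC culture, and in pool 4 the lowest EB value lay well above the highest ESC value. Pool 4 held 33.96% ± 9.28 of the Ipo7 pool signal in EB and 15.8% ± 4.60 in ESC (SD, n = 3 each). Nap1l1, which encodes a histone chaperone, had its highest mean in pool 3 in EB (12.58 ± 0.45) and in pool 2 in ESC (11.43 ± 0.50), with pool 3 at 11.20 ± 0.43 in ESC, within the spread of pool 2. The remaining genes lay between: Eef1d was highest in pool 3 in all 3 EB cultures and in pool 2 in 2 of 3 ESC cultures, and Pabpc1 in pool 3 in 2 of 3 EB cultures and in pool 2 in all 3 ESC cultures. Over all 9 genes and 3 cultures, pool 2 held the highest signal in 12 of 27 EB profiles and 23 of 27 ESC profiles. The 27 profiles of a state come from the same 3 cultures, and no such count over all probe sets was made. Over all tested probe sets the mean share was also highest in pool 2 in ESC, at 36.6% against 40.6% for the members. In EB it was 29.2% in pool 2 and 34.3% in pool 3, against 33.4% and 33.6% for the members.

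Position was summarised as the pool ratio, the log2 signal averaged over pools 3 and 4 of a culture, less its average over pools 1 and 2. In ESC, 6 of the 9 genes lay toward pools 1 and 2 and none lay toward pools 3 and 4 by the test, against 15.3% and 5.01% of all probe sets. Tpt1 had the lowest ESC ratio, -0.95 ± 0.42, followed by Pabpc1 at -0.92 ± 0.22, Eef1a1 at -0.91 ± 0.36, Eef1b2 at -0.86 ± 0.33, Npm1 at -0.65 ± 0.50 and Ipo7 at -0.62 ± 0.39 (log2, SD, n = 3; limma adjusted p from 2.28e-05 to 0.00644). Eef1d at 0.37 ± 0.21, Eef2 at 0.06 ± 0.23 and Nap1l1 at -0.07 ± 0.55 were not called. Without ESC replicate 1 the count was 4, since Npm1 and Ipo7 were no longer called. With low probe sets left in the fit it was 2. Centred on the brightest 10%, 4 of the genes remained toward pools 1 and 2 (Tpt1, Pabpc1, Eef1a1 and Eef1b2; background 5.67%) and Eef1d lay toward pools 3 and 4 (0.62 ± 0.14 SE; background 8.74%). After quantile normalization none lay toward pools 1 and 2 by limma (background 12.5%), and Eef1d and Eef2 lay toward pools 3 and 4 (background 13.2%). Before adjustment 1 gene lay toward pools 1 and 2 at a limma p below 0.05, a threshold for which no share of all probe sets is given.

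In EB, 5 of the 9 genes lay toward pools 3 and 4 and none toward pools 1 and 2 by the test, against 52.1% and 4.81% of all probe sets. Nap1l1 had the highest ratio, 1.46 ± 0.37, followed by Ipo7 at 1.21 ± 0.37, Eef1d at 1.13 ± 0.20, Eef2 at 0.73 ± 0.18 and Pabpc1 at 0.46 ± 0.15 (log2, SD, n = 3; limma adjusted p from 1.02e-09 to 0.0137). Npm1 at 0.32 ± 0.21, Eef1a1 at -0.21 ± 0.52, Tpt1 at -0.31 ± 0.51 and Eef1b2 at -0.32 ± 0.25 were not called. Without EB replicate 3, the culture whose pool 2 array stood apart, Eef1a1 had a ratio of 0.09 and the same 5 genes were called. The share of members called higher is close to that of the array, so it does not set them apart. Centred on the brightest 10%, Nap1l1 alone lay toward pools 3 and 4 (0.52 ± 0.16 SE; background 12%), and Eef1a1, Eef1b2, Pabpc1, Npm1 and Tpt1 lay toward pools 1 and 2, by -0.48 in Pabpc1 to -1.26 in Eef1b2 (background 56.2%). After quantile normalization Eef1d, Eef2, Pabpc1, Npm1 and Nap1l1 lay toward pools 3 and 4 (background 20.1%). On the deposited scale Pabpc1 was no longer called without EB replicate 1 or without EB replicate 2.

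**Figure D2:**
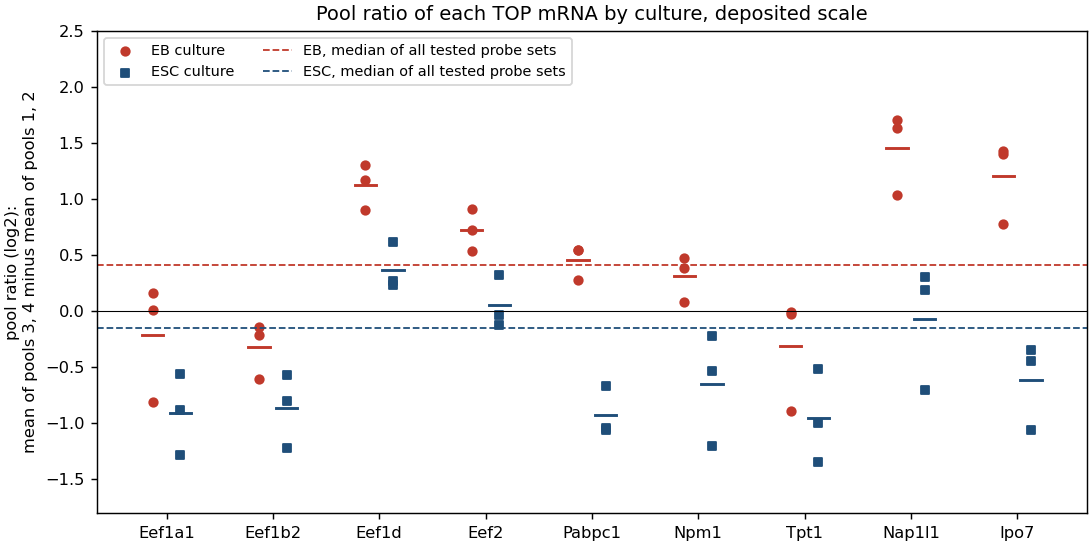
Pool ratio (log2, vertical axis) of the 9 genes in each culture, with EB as circles on the left and ESC as squares on the right of each gene, short bars at the mean of 3 cultures and dashed lines at the median of all tested probe sets (0.42 in EB and -0.15 in ESC). The ratio of Ipo7 lies between 0.78 and 1.43 in EB and between -1.06 and -0.34 in ESC, whereas the EB and ESC values of Eef1a1, Eef1b2 and Tpt1 overlap.

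The comparison of the ratio between states asked whether these mRNAs changed position on the gradient as ESC differentiated. All 9 genes were called higher in EB than in ESC on the deposited scale, by 0.54 to 1.82, against 54.9% of all probe sets. The median difference of the 9 genes was 0.75 and that of all tested probe sets 0.61. In 6 genes every EB culture lay above every ESC culture, which held for 58.8% of all probe sets.

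Ipo7 had the largest difference. Its ratio was 0.78, 1.41 and 1.43 in the EB cultures and -1.06, -0.44 and -0.34 in the ESC cultures, a difference of 1.82 ± 0.24 (log2, SE; limma adjusted p = 5.96e-08) that exceeded that of 98.4% of tested probe sets. Nap1l1 had ratios of 1.04, 1.71 and 1.63 in EB and -0.71, 0.19 and 0.31 in ESC, a difference of 1.53 ± 0.25 (limma adjusted p = 2.11e-06). Pabpc1, whose product coats poly(A) tails and helps to recruit ribosomes, had 0.54, 0.55 and 0.28 in EB and -1.06, -0.67 and -1.04 in ESC, a difference of 1.38 ± 0.23 (limma adjusted p = 2.58e-06). In these 3 genes the 2 states did not overlap. They exceeded the median of the array by more than any other member.

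The elongation factor genes and Tpt1 differed by less. Eef1b2 had ratios of -0.14, -0.21 and -0.60 in EB and -1.22, -0.57 and -0.80 in ESC, so that the groups overlapped, and a difference of 0.54 ± 0.24 (limma adjusted p = 0.0465). Eef1a1 had 0.16, 0.01 and -0.81 in EB and -1.28, -0.56 and -0.88 in ESC, also overlapping, a difference of 0.70 ± 0.25 (limma adjusted p = 0.0158). Tpt1 overlapped as well, with a difference of 0.64 ± 0.25. The groups did not overlap in Npm1 (0.97 ± 0.24), Eef1d (0.75 ± 0.23) and Eef2 (0.67 ± 0.23). The count of 9 fell to 5 without EB replicate 2 and to 5 without ESC replicate 1, since Eef1a1, Eef1b2, Eef2 and Tpt1 were no longer called, and it was 9 without EB replicate 3. It was also 4 with an offset of 1 in place of 32 before the log.

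**Figure D3:**
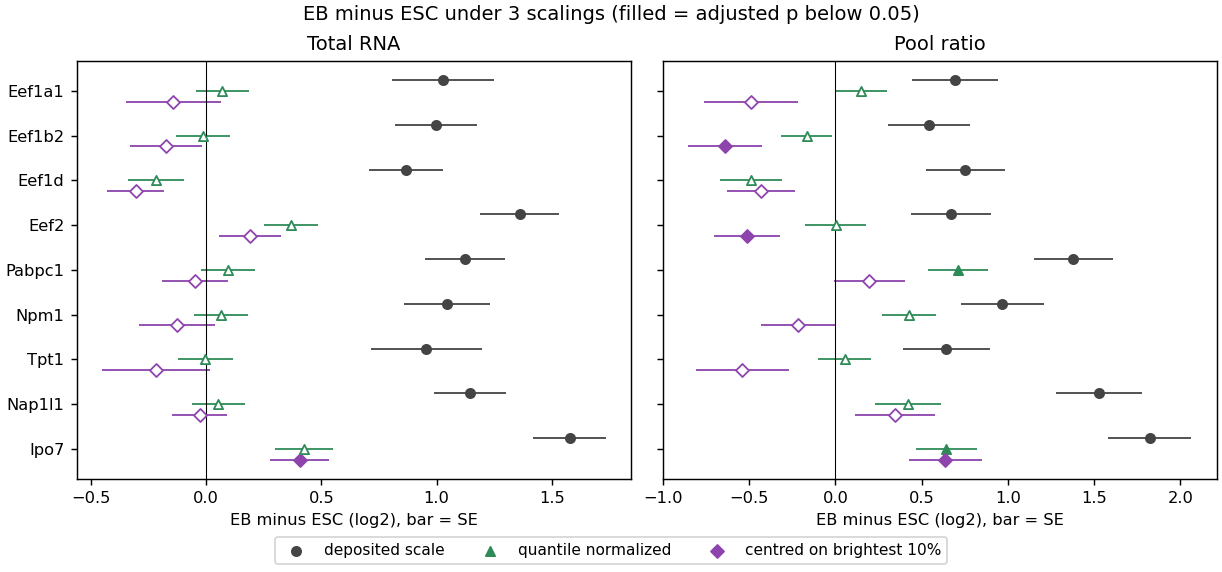
EB minus ESC (log2, horizontal axis) of the 9 genes in total RNA on the left and in the pool ratio on the right, with circles for the deposited scale, triangles after quantile normalization and diamonds centred on the brightest 10%; bars are SE and filled symbols have an adjusted p below 0.05. All 9 circles lie right of 0 in both plots, while in the pool ratio the diamonds run from -0.64 in Eef1b2 to 0.64 in Ipo7.

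Relative to other mRNAs the members differed from one another in direction. Centred on the brightest 10%, the pool ratio of Ipo7 was higher in EB by 0.64 ± 0.21 (limma adjusted p = 0.0300; background 2.43%), and those of Eef1b2 and Eef2 were lower in EB, by -0.64 ± 0.21 (limma adjusted p = 0.0298) and -0.51 ± 0.19 (limma adjusted p = 0.0437; background 46.8%). After quantile normalization Pabpc1 (0.71 ± 0.17, limma adjusted p = 0.0322) and Ipo7 (0.64 ± 0.18, limma adjusted p = 0.0493) were higher in EB (background 2.95%) and no member was lower. By the brightest probe set of each gene, Ipo7 was the member called higher on all 3 scales, Eef1b2 and Eef2 were called on opposite sides on 2 of them, and the other 6 genes were called on at most 2. Of the further Ipo7 probe sets, described below, 1 was called lower on the deposited scale and 2 on each of the other scales. Within a culture the scaling of the arrays cancels when the pool ratio of one gene is subtracted from that of another. The ratio of Ipo7 exceeded that of Eef1b2 by 0.93, 1.62 and 2.03 in the EB cultures and by 0.16, 0.13 and 0.45 in the ESC cultures. That of Pabpc1 exceeded that of Tpt1 by 0.56, 0.55 and 1.18 in EB and by 0.28, -0.15 and -0.05 in ESC. These pairs were chosen after their values were seen, and the gaps are given as a description, with no overlap of the states in either. The ratio of Nap1l1 exceeded that of Eef1b2 by 1.18, 1.92 and 2.24 in EB and by 0.51, 0.76 and 1.10 in ESC. The gap between Ipo7 and Pabpc1 overlapped between states, at 0.24, 0.86 and 1.15 in EB and -0.00062, 0.22 and 0.70 in ESC. From the highest to the lowest mean ratio the order was Nap1l1, Ipo7, Eef1d, Eef2, Pabpc1, Npm1, Eef1a1, Tpt1 and Eef1b2 in EB, and Eef1d, Eef2, Nap1l1, Ipo7, Npm1, Eef1b2, Eef1a1, Pabpc1 and Tpt1 in ESC. Neighbours in both orders overlapped in their culture values.

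Taken pool by pool on the deposited scale, the calls lay in pools 3 and 4. In pool 1 none of the 9 genes was called, with differences from -0.68 in Ipo7 to 0.85 in Eef2, and none had an unadjusted limma p below 0.05; 0% of all probe sets were called higher. In pool 2 none was called, against 2.53% of all probe sets called higher after adjustment. Eef2 alone had an unadjusted limma p below 0.05, and with the replicate number as a block 1 gene was called. In pool 3, 8 genes were called higher in EB, by 1.03 in Tpt1 to 1.56 in Eef2, and Eef1d was not (0.85 ± 0.41; background 46.1%). The block raised that count to 9, and it was 5 without EB replicate 3 and 3 without ESC replicate 2. In pool 4 all 9 were higher, by 0.91 in Eef1d to 1.83 in Ipo7 (background 69.3%), and in each every EB culture lay above every ESC culture, as in 71.9% of all probe sets. After quantile normalization the calls among the brightest probe sets were Eef2 in pool 1, higher in EB by 0.87 ± 0.14 (limma adjusted p = 0.0205; background 4.93%), and Eef2, Npm1 and Ipo7 in pool 4 (background 12.3%). Of the further probe sets, 1 of Pabpc1, 1 of Nap1l1 and 2 of Ipo7 were higher in pool 1. For Eef1d, 1 was lower in pool 2 and 1 in pool 3. In pool 4 both Npm1 probe sets and 3 of Nap1l1 were higher, and 2 of Eef1d and 1 of Pabpc1 were lower. Centred on the brightest 10%, the brightest probe sets of Eef2 and Ipo7 were higher in pool 4 (background 8.96% higher in pool 4). No brightest probe set of a member was called in the other pools on that scale. Of the further probe sets, 2 of Eef1d, 1 of Pabpc1 and 2 of Ipo7 were lower in pool 4, and 2 of Nap1l1 were higher. In pool 3, 1 each of Eef1d, Pabpc1 and Ipo7 was lower. The deposited pool 1 signal of Eef2 was 11.49 ± 0.53 in EB and 10.62 ± 0.82 in ESC (SD, n = 3 each), the largest pool 1 difference among the brightest probe sets of the members.

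The centre of a profile, the mean pool number weighted by signal, differed most between states in the same 3 genes. Ipo7 had a centre of 2.93 ± 0.16 in EB and 2.31 ± 0.15 in ESC (SD, n = 3 each), Nap1l1 2.96 ± 0.14 and 2.48 ± 0.21, and Pabpc1 2.65 ± 0.03 and 2.23 ± 0.11. Eef1b2 had 2.43 ± 0.06 in EB and 2.25 ± 0.14 in ESC, overlapping. In 6 of the 9 genes every EB centre lay above every ESC centre, against 54.3% of all probe sets. An exact two-sided permutation test gave p = 0.1 for each of the 6, the smallest value that 3 cultures against 3 allow. Centred on the brightest 10%, every EB centre lay above every ESC centre in Ipo7 alone, against 13.1% of all probe sets. On that scale Eef1b2, Eef1d, Eef2 and Tpt1 had every EB centre below every ESC centre, by -0.20, -0.16, -0.17 and -0.16 pool numbers, against 19.9% of all probe sets.

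Several genes were read by more than 1 probe set, and most of these agreed in direction on the deposited scale. All 7 Nap1l1 probe sets had a higher pool ratio in EB, by 1.08 to 1.66, all 3 tested Eef1d probe sets by 0.57 to 1.04, and both Npm1 probe sets by 0.78 and 0.97 (deposited scale, each called). On that scale 54.9% of all probe sets were called higher. None of these probe sets was called on either other scale. After quantile normalization the differences ran from -0.05 to 0.53 in Nap1l1, -0.49 to 0.04 in Eef1d and 0.20 to 0.43 in Npm1. Centred on the brightest 10%, they ran from -0.11 to 0.48, -0.61 to -0.15 and -0.41 to -0.22. In total RNA the dim Eef1d probe set 1428135_a_at was the one of 21 that was not called (0.09 ± 0.19), and 73.3% of all probe sets were called higher.

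Pabpc1 and Ipo7 each had dim probe sets with an opposite profile. The Pabpc1 probe set 1453840_at measured 8.45, 7.80 and 7.82 in EB pool 1 and 4.24, 4.58 and 5.14 in EB pool 4, and 7.76, 6.22 and 6.24 in ESC pool 1 and 4.45, 4.49 and 4.07 in ESC pool 4. Pool 1 was its highest pool in every culture and held 71.4% ± 5.06 of its pool signal in EB and 62.8% ± 6.71 in ESC, while the bright probe set of the same gene had 13.4% ± 1.31 and 24.1% ± 7.38 there. The Ipo7 probe set 1442511_at had 50.4% ± 1.47 of its signal in pool 1 in EB and 43.1% ± 12.7 in ESC, and 1458165_at had 38.0% ± 5.08 and 29.0% ± 6.18. Values at the lowest recorded level are upper bounds. They were the replicate 3 value of 1453840_at in EB and ESC pool 2, and 2 values of 1442511_at in ESC pools 3 and 4. For 1458165_at they were 10 of 24 values: all of pool 4 in both states, ESC replicate 2 in pool 3 and ESC replicate 3 in every pool.

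None of these probe sets was called higher in the pool ratio. For 1453840_at it was -1.52, -1.30 and -0.75 in EB and -1.50, -0.67 and -0.43 in ESC (difference -0.33 ± 0.25, not called, but -0.64 and called without ESC replicate 1). For 1442511_at it was -1.38, -1.63 and -1.45 in EB and -1.45, -0.62 and -0.82 in ESC (difference -0.52 ± 0.24, not called, but -0.77 and called without ESC replicate 1). For 1458165_at it was -1.09, -0.97 and -1.26 in EB and -0.51, -0.15 and 0.00 in ESC, a difference of -0.89 (limma called it lower, as it did 0.241% of all probe sets). That difference rests in part on values at the lowest level, and the ESC value of 0.00 comes from a culture at that level in all 4 pools, so no position is read from it. After quantile normalization all 3 were called lower in EB, by -0.90 for 1453840_at, -0.86 for 1442511_at and -1.04 for 1458165_at (background 3.79%). Centred on the brightest 10% all 3 were again called lower, by -1.51 for 1453840_at and by up to -2.07 for those of Ipo7 (background 46.8%). The values of 1458165_at at the lowest level enter these fits too. In total RNA all 3 were higher in EB on the deposited scale, by 1.16, 0.99 and 0.72, as were the bright probe sets, and centred on the brightest 10% their differences were -0.0064, -0.18 and -0.45, with none called. The annotation used does not say which transcripts or regions of the genes these probe sets read.

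**Figure D4:**
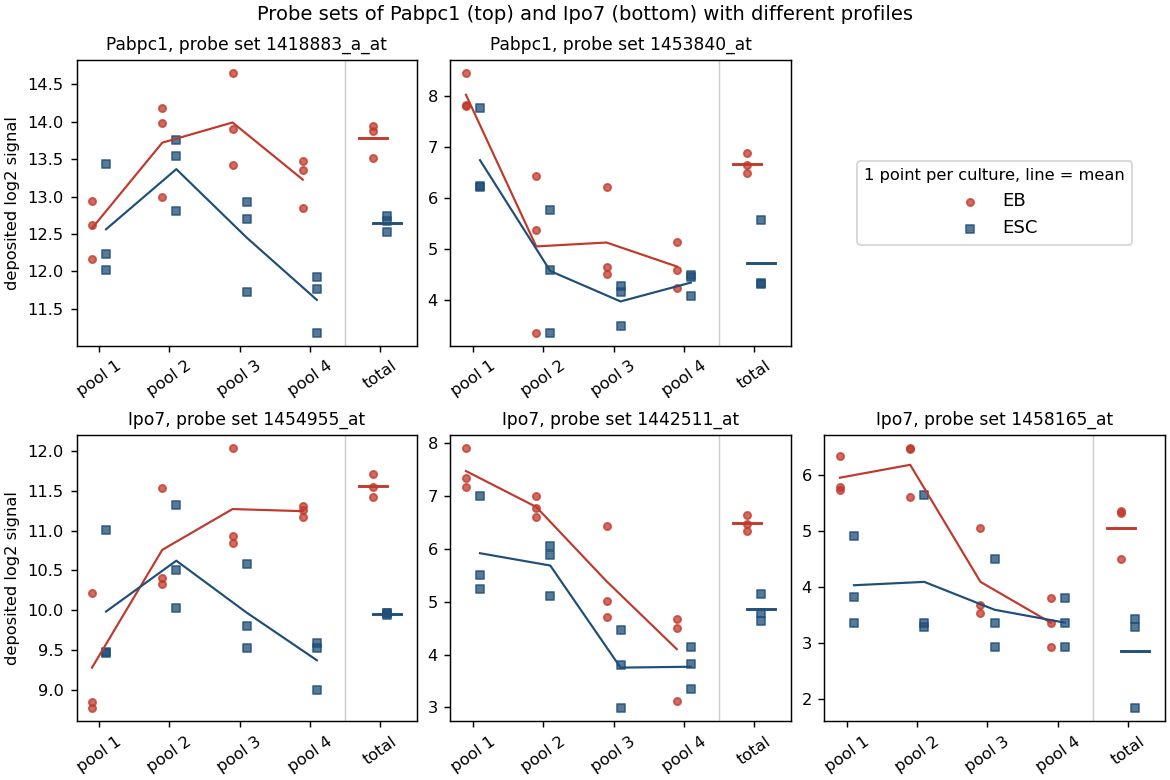
Deposited log2 signal (vertical axis) of the bright and the dim probe sets of Pabpc1 (top) and Ipo7 (bottom) in pools 1 to 4 and in total RNA, with EB as circles, ESC as squares and lines through the means of 3 cultures. The bright probe sets peak in pools 2 to 4, while the dim ones have their highest pool mean in pool 1 or 2 in both states.

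The members were set beside lists of other genes by counts and medians, on the deposited scale unless another is named. On that scale 54.9% of all probe sets were called higher in EB in the pool ratio and 73.3% in total RNA. The mRNAs of cytosolic ribosomal proteins, the main class of TOP mRNAs, lay further toward pools 1 and 2. Of 80 listed genes 44 were tested, and 29 of 44 in EB and 38 of 44 in ESC were called on that side. Of all probe sets 4.81% in EB and 15.3% in ESC were called there. The median ratios were -0.46 in EB and -0.94 in ESC, against 0.46 in EB and -0.65 in ESC for the 9 members. Between states 10 of 44 ribosomal protein genes were called higher in EB, with a median difference of 0.39, against 9 of 9 members with 0.75. After quantile normalization none was higher and 2 were lower, against 2 higher and 0 lower members, and centred on the brightest 10% none was higher and 34 were lower (median -0.79), against 1 higher and 2 lower members (median -0.43). On the deposited scale Rpl39 (1.28 ± 0.25) and Rps25 (0.84 ± 0.24) led them.

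Of 11 further TOP mRNAs, 7 were called higher between states with a median of 0.94, led by Hnrnpa1, an RNA-binding protein gene (1.33 ± 0.23), and Ccni, a cyclin family gene (1.32 ± 0.23), while none was higher and 4 were lower on each of the other 2 scales. The 8 noncoding TOP transcripts, which host small nucleolar RNAs, lay toward pools 1 and 2 in 7 cases in EB and in all 8 in ESC, with median ratios of -1.24 and -1.38. Of all probe sets 4.81% in EB and 15.3% in ESC were called on that side. Between states 1 of them, Snhg5, was called higher (0.80 ± 0.24), and none was higher on the other scales, where 6 of 8 were lower after quantile normalization and 7 of 8 centred on the brightest 10%. In total RNA Snhg5 (1.97 ± 0.16) and Zfas1 (1.81 ± 0.19) led that list. All 9 abundant mRNAs without a known TOP tract were also called higher in the pool ratio, with a median of 0.82, led by Ldha (1.36 ± 0.24) and Tpi1 (1.19 ± 0.23), both glycolytic enzyme genes. After quantile normalization none of these 9 was called (median 0.09), and centred on the brightest 10% none was higher and 3 were lower (median -0.36). Their median ratios were 0.74 in EB and 0.05 in ESC, so they lay further toward pools 3 and 4 than the members did in ESC.

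Relatives of the members without a place in the list were called higher in 12 of 15 cases, with a median of 0.91. After quantile normalization none was called, and centred on the brightest 10% 1 was higher and 3 were lower. The importin genes Ipo5 (1.84 ± 0.24) and Ipo8 (1.48 ± 0.23) led them, beside Ipo7 at 1.82. Ipo5 was also called when centred on the brightest 10% (0.65, limma adjusted p = 0.0265), and Ipo8 was not (0.30). In total RNA Pabpc4 (1.76 ± 0.16) and Nap1l4 (1.68 ± 0.16) led that list, ahead of Pabpc1 (1.12) and Nap1l1 (1.14). Of 16 regulators of TOP mRNAs 14 were called higher, with a median of 1.26, led by Cnbp, which encodes a zinc finger protein that binds TOP mRNAs (2.06 ± 0.23), and Larp4 (1.65 ± 0.23). That count was 1 higher and 1 lower after quantile normalization, and 1 higher and 2 lower centred on the brightest 10%. In total RNA all 16 were higher, led by Larp4 (1.63 ± 0.15) and Larp1 (1.58 ± 0.17), against none higher and 3 lower after quantile normalization and 2 higher and 4 lower centred on the brightest 10%. None of these list counts was tested against the members.

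**Figure D5:**
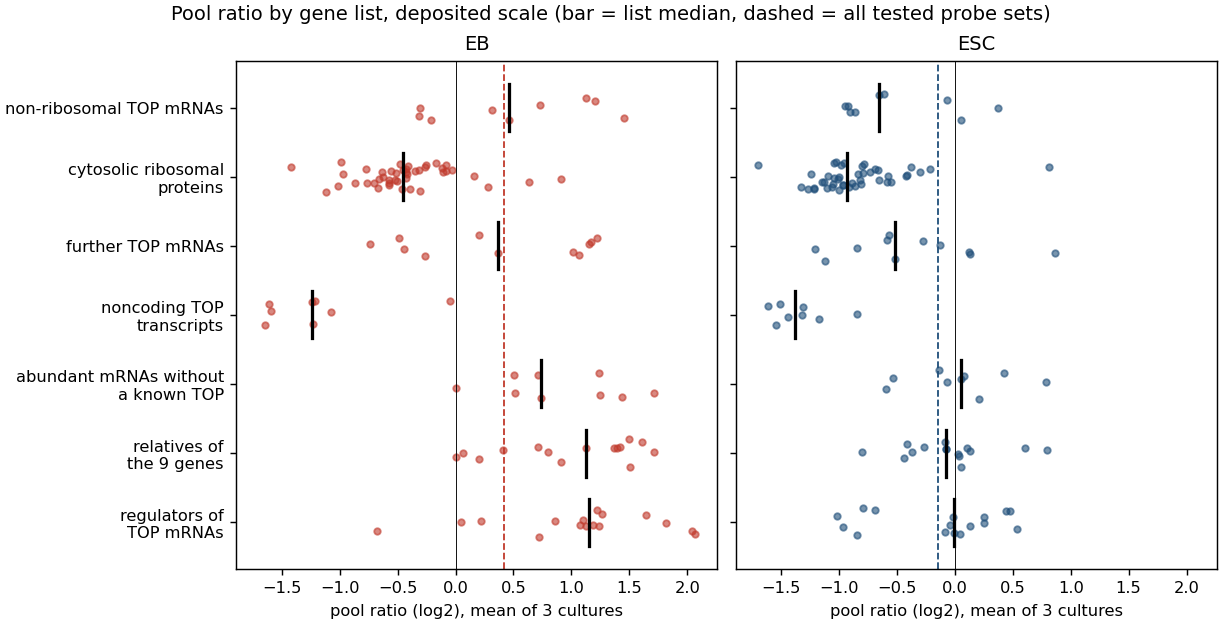
Pool ratio (log2, horizontal axis, mean of 3 cultures) of each gene in 7 lists, with EB on the left and ESC on the right; black bars are list medians and dashed lines the median of all tested probe sets. The 9 members spread from -0.32 to 1.46 in EB and from -0.95 to 0.37 in ESC, and their median lies between those of the ribosomal protein genes and of the abundant mRNAs without a known TOP tract in both states.

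The profile of the members over the 8 pool groups was matched against other genes after quantile normalization. Rap1gds1, Crlf3, Zfp212, Crocc and Aurkb had the highest correlations with the mean profile of the 9 genes, between 0.976 and 0.983 over 8 group means. The members' own correlations with that mean ran from -0.81 in Eef1b2 to 0.96 in Eef1a1, so the mean is not a profile that all members follow. By the shares of signal in the 8 pool groups, a measure added after the data were seen, the nearest genes were Mkrn2, Nol3, Marchf8, Inka1 and Mbip, at 2.48 to 3.11 percentage points, while the members themselves lay 6.37 (Npm1) to 20.2 (Eef1d) points from their mean. The 8 group means share cultures and arrays, and these correlations are descriptions.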

How the data were processed

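Affymetrix mouse whole-genome arrays were deposited by the authors as log2 signals per probe set. MAS5 and affy are named, with no version, per the submitters' processing notes. The scaling is not given in the sources used here. The 8 pool arrays of a replicate number share a lowest value. The genes of the members and lists were chosen with earlier results of these data known. Probe sets were named from the platform's gene table: 34945 had 1 symbol, 932 several, 9160 none, and 64 were controls. No sample column was left unmapped (0).

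Signals were made linear, 32 was added, log2 was taken, and the dimmest 40% of probe sets by mean value were left out. A gene is represented by its brightest probe set. limma 3.58.1 in R 4.3.3 (lmFit, eBayes, two-sided, Benjamini-Hochberg over 27022 probe sets, threshold 0.05) compared EB with ESC in total RNA, each pool and the pool ratio, and the ratio with 0 in each state. In the ratio fits the estimated spread was nearly equal for all probe sets (SE 0.23 to 0.25 among the members), so p-values hardly use a gene's own spread. Fold changes of dim probe sets are understated by the offset. Values were also simulated with the spread of the quantile-normalized data and independent normal noise. Of simulated log2 changes of 1 and 2, 52% and 95% were recovered in the pool ratio and 45% and 85% in total RNA. Recovery on the deposited scale was not simulated.

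Named were all members and probe sets; of other lists, up to 2 called genes with the largest difference per fit (markers and RNAs not read by ribosomes by counts); and the 5 genes nearest to the members' mean profile. Deviations of same-numbered EB and ESC cultures correlated at 0.52, 0.32 and 0.33 in pool 1 and at 0.34, 0.14 and 0.15 in pool 2. There each EB culture correlated best with the ESC culture of its own number. In pool 3 the values were 0.45, 0.35 and 0.11, and EB replicate 3 correlated better with an ESC culture of another number. Elsewhere some pair lay below 0.1. The shared lowest value is the one sign of what the numbers share, and its part in these correlations was not tested. The fits use the numbers only where a block is named. Alternatives were other offsets, filters, scalings, pool groupings, a replicate block and leaving out each culture. Precision is limited by the number of arrays.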

Additional observations from a re-analysis of the deposited data

Results flagged for a closer look

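The pool ratio differed between EB and ESC by limma's test of the difference in 19 of the 21 tested probe sets of the 9 genes, on the deposited scale. The EB minus ESC differences (log2) were 0.70 for Eef1a1, 0.54 for Eef1b2, 0.57, 1.04 and 0.75 for the 3 tested probe sets of Eef1d, and 0.67 for Eef2. They were 1.38 for Pabpc1, 0.97 and 0.78 for the 2 probe sets of Npm1, and 0.64 for Tpt1. The 7 probe sets of Nap1l1 differed by 1.32, 1.66, 1.53, 1.57, 1.25, 1.08 and 1.09. The bright probe set of Ipo7 differed by 1.82 and the probe set 1458165_at of the same gene by -0.89. As 54.9% of all tested probe sets were called higher in the same fit, the 18 positive differences describe the array as well as these genes. The negative one of Ipo7 1458165_at rests on values at the lowest recorded level, on 10 of 24 pool arrays and in all 4 pools of ESC replicate 3, and gives no measured direction. No explanation was tested.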

How the results depend on the processing

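In total RNA the count of 9 genes higher in EB was 0 after quantile normalization, 2 with median centring and 1 centred on the brightest 10%. In the pool ratio the count of 9 was 4 with an offset of 1, 2 after quantile normalization, 3 with median centring, 1 centred on the brightest 10% (with 2 lower), 3 for pool 4 minus pool 1 and 4 for pools 2 to 4 minus pool 1, and 5 to 9 with a culture left out. Eef1d, Pabpc1, Npm1, Nap1l1 and Ipo7 kept their call without any 1 culture. Against 0, the 5 genes toward pools 3 and 4 in EB were 3 with median centring (3 lower), 1 centred on the brightest 10% (5 lower), 9 for pools 2 to 4 minus pool 1, and 4 to 5 with a culture left out. In ESC the count higher, 0, was 1 with an offset 4 times as large, 2 after quantile normalization, 1 with median centring, 1 centred on the brightest 10% and 2 for pools 2 to 4 minus pool 1. The count lower, 6, was 2 with no filter, 0 after quantile normalization, 0 for pool 4 minus pool 1, 0 for pools 2 to 4 minus pool 1, and 4 to 6 with a culture left out. By pool, pool 1 had 1 call after quantile normalization. Pool 2 had 0 to 2 with a culture left out. Pool 3 had 3 with an offset of 1, 4 with an offset 4 times as large, 4 with no filter, 0 under each of the 3 scalings, and 3 to 9 with a culture left out. Pool 4 had 3 after quantile normalization, 5 with median centring and 2 centred on the brightest 10%. The centre separated 6 genes, 1 centred on the brightest 10% and 6 to 9 with a culture left out. With the replicate number as a block, pool 2 had 1 call and pool 3 had 9, and the block moved no other count (9 in total RNA, 9 in the pool ratio, 0 in pool 1, 9 in pool 4).

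Signs that turned were as follows, and their cause was not tested. In total RNA, quantile normalization gave -0.014 for Eef1b2, -0.22 for Eef1d and -0.0025 for Tpt1, and median centring -0.037 for Eef1d and -0.18 for Ipo7 1458165_at. The brightest 10% gave -0.14 for Eef1a1, -0.17 for Eef1b2, -0.30 for Eef1d, -0.048 for Pabpc1, -0.13 for Npm1, -0.22 for Tpt1, -0.028 for Nap1l1, -0.0064 for Pabpc1 1453840_at, -0.18 for Ipo7 1442511_at and -0.45 for Ipo7 1458165_at. In the pool ratio between states, quantile normalization gave -0.17 for Eef1b2 and -0.49 for Eef1d, median centring -0.12 for Eef1b2 and -0.019 for Tpt1, and the brightest 10% -0.49 for Eef1a1, -0.64 for Eef1b2, -0.43 for Eef1d, -0.51 for Eef2, -0.22 for Npm1 and -0.54 for Tpt1. In EB, quantile normalization gave 0.23 for Eef1a1 and 0.11 for Tpt1, median centring -0.014 for Pabpc1 and -0.16 for Npm1, and the brightest 10% -0.21 for Eef2, -0.48 for Pabpc1 and -0.62 for Npm1. Pool 4 minus pool 1 gave 0.15 for Eef1a1, and pools 2 to 4 minus pool 1 gave 0.79 for Eef1a1, 0.84 for Eef1b2 and 0.63 for Tpt1. Leaving out a culture gave -0.40 to 0.087 for Eef1a1 in EB. In ESC, quantile normalization gave 0.079 for Eef1a1, 0.17 for Npm1, 0.058 for Tpt1 and 0.33 for Nap1l1, median centring 0.12 for Nap1l1, and the brightest 10% 0.17 for Nap1l1 and 0.026 for Ipo7 1458165_at. Pool 4 minus pool 1 gave 0.083 for Nap1l1, and pools 2 to 4 minus pool 1 gave 0.15 for Eef1b2, 0.44 for Npm1, 0.55 for Nap1l1 and 0.0037 for Ipo7. Leaving out a culture gave -0.26 to 0.25 for Nap1l1 and -0.076 to 0.14 for Eef2.

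The limits are 3 cultures per state, the undescribed scaling, pool arrays with 18.3% to 59.1% of probe sets at the lowest value, and dim probe sets near it.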
